A study of Mus musculus with 24 samples.

Results

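A set of 6 genes that intestinal epithelium uses to make reactive oxygen or nitrogen species, or to remove peroxide, were followed in sorted Atoh1-expressing cells: Duox2, Duoxa2, Nox1, Noxo1, Nos2 and Gpx2. They were named by symbol, matched to Ensembl identifiers in the count files, and make up 6 of the 45513 genes counted. All 6 passed the filter on low counts in every comparison. The genes were proposed with results of these libraries in view, and the choice is taken to have used the difference between genotypes in small intestine (SI), so values from that comparison are given as a description. Counts of calls among the 6 are printed there only beside the share of all genes called, and nothing is read from them.

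There were 4 groups of 6 libraries, each with 3 female and 3 male mice of 8 to 16 weeks on a C57BL/6 background, from 2 genotypes (WT and 9S/T-A) and 2 tissues (SI and colon). WT mice were homozygous for Atoh1(WT)CreERT2, in which a tamoxifen-inducible Cre recombinase lies downstream of the normal Atoh1 coding sequence, and 9S/T-A mice were homozygous for Atoh1(9S/T-A)CreERT2, in which 9 serine or threonine phosphorylation sites had been changed to alanine. All groups carried 1 copy of a Rosa26 tdTomato reporter and received 3 mg of tamoxifen 24 h before live EpCAM+ tdTom+ cells were sorted, so the controls also carry the Cre knock-in and the drug. The reporter labels cells by the Atoh1 promoter itself, ATOH1 being the transcription factor that commits crypt cells to secretory fates, and SI tissue was from the proximal part after a villus-rich fraction had been thrown away.

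NADPH oxidases pass electrons across a membrane to oxygen. DUOX2 sits on the apical face of gut epithelium and releases hydrogen peroxide towards the lumen, but it leaves the endoplasmic reticulum only together with its maturation factor DUOXA2. NOX1 makes superoxide and needs the membrane subunit p22phox (Cyba), the organiser NOXO1, the activator NOXA1 and the GTPase RAC1. NOS2 makes nitric oxide from arginine and is known for its induction by bacterial products and cytokines, as is DUOX2, while GPX2 is the glutathione peroxidase of the gut epithelium, which reduces peroxides with glutathione.

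Library totals were between 36.0 M and 65.8 M counts (M for mega), and levels are given as counts per M (CPM) after TMM scaling over all 24 libraries. In bulk RNA, fewer cells of a type and less RNA per cell cannot be told apart. Atoh1 was between 57.7 and 124 CPM in the 24 libraries, and gene counts do not show the alanine changes, so they do not check the genotype labels. The tissue labels went with their markers: the summed level of 9 Paneth cell genes was 49170 to 102900 CPM in SI and 184 to 1500 CPM in colon, which has few or no Paneth cells. Between genotypes in SI the same list summed to 60640 to 102900 CPM for WT and 49170 to 76920 CPM for 9S/T-A, with 3 of 9 genes called lower (Mmp7, Ang4 and Itln1, log2 fold changes -1.25, -1.11 and -0.98) and a median of -0.55. Other cell type lists also differed there. The 10 enteroendocrine and tuft genes had a median of -0.70 with 9 of 10 negative (Pou2f3 called lower, 5 genes with a replicate block), and summed to 213 to 509 CPM for WT and 174 to 412 CPM for 9S/T-A. The 10 stem and cycling genes had 9 negative (median -0.28; 1086 to 1481 against 776 to 1382 CPM). Goblet genes were positive in 9 of 9 tested (median 0.27; 315300 to 443400 against 320600 to 508400 CPM) and absorptive genes in 15 of 18 (median 0.25; 10650 to 15960 against 13910 to 16800 CPM), with no gene of these 3 lists called. No marker in these lists was at 0 in a whole group, and the part of these cell types in the differences between SI groups described here was not tested.

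Duox2 (ENSMUSG00000068452) and Duoxa2 (ENSMUSG00000027225) form a divergent pair on chromosome 2. In GRCm38 coordinates Duox2 runs from 122279247 to 122298165 on the minus strand and Duoxa2 from 122298900 to 122302885 on the plus strand, leaving 734 bases between them. The next oxidase gene, Duox1, starts 12786 bases beyond Duoxa2, and Duoxa1 overlaps Duoxa2 by 695 bases on the opposite strand, which the strand-specific counting kept apart. The 250 bases before each RefSeq start lie inside or at the edge of this gap, with 172 bases between the windows, and are shown because the genes share it (chr2:122298228-122298477, minus strand, and chr2:122298650-122298899, plus strand, RefSeq on GRCm38.p6, each read 5′ to 3′ towards its gene).
Duox2: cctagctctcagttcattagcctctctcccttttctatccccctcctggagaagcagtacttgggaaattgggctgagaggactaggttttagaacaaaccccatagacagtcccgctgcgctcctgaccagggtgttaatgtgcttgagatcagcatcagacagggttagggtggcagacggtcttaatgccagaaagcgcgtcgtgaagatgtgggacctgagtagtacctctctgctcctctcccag
Duoxa2: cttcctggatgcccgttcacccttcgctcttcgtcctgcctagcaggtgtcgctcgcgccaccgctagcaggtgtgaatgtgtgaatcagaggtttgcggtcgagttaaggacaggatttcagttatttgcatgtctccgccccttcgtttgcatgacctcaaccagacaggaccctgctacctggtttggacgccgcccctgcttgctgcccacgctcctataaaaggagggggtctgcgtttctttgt

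The other 4 genes lie apart. Nox1 (ENSMUSG00000031257) is on chromosome X from 134086421 to 134221956, minus strand, Noxo1 (ENSMUSG00000019320) on chromosome 17 from 24696234 to 24700529, plus strand, Nos2 (ENSMUSG00000020826) on chromosome 11 from 78920787 to 78960254, plus strand, and Gpx2 (ENSMUSG00000042808) on chromosome 12 from 76792335 to 76795554, minus strand. A set of 6 motifs was searched on both strands of the 5 windows found in RefSeq, those of all genes but Nos2: the NF-kB motif, the antioxidant response element TGACNNNGC, the STAT motif TTCNNNGAA, the interferon-stimulated response element, the E-box CAGCTG and the CDX2 motif TTTATG. Among 32851 mouse windows of the same length they occurred in 7.25%, 10.2%, 7.02%, 2.98%, 13.0% and 10.8%. Only the Nox1 and Gpx2 windows held a match, and these are printed with the matched letters in capitals (chrX:134111855-134112104 and chr12:76795555-76795804, both minus strand). The RefSeq start of Nox1 lies well inside the Ensembl gene whose coordinates are given and whose exons were counted, and that of Duox2 lies just outside its Ensembl gene, whereas the windows of Duoxa2, Noxo1 and Gpx2 end where the Ensembl gene begins. In Nox1 a CDX2 motif lay 180 to 175 bases and an NF-kB motif 91 to 82 bases before the RefSeq start, and in Gpx2 a CDX2 motif lay 129 to 124 bases before it. A match is a string of letters and not a measured binding site, and the lack of one says nothing of the factor.
Nox1: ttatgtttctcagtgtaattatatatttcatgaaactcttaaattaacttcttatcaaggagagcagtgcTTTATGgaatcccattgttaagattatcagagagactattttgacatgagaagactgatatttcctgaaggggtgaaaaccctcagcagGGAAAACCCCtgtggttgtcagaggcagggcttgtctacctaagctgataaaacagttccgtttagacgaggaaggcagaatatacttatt
Gpx2: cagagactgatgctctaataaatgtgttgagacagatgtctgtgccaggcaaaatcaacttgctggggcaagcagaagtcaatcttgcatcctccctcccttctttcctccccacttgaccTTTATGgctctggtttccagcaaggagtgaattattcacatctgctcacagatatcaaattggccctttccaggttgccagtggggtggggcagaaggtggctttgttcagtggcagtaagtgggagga

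The oxidase Duox2 was highest in colon, lower in WT SI and lowest in 9S/T-A SI. Its lowest, median and highest levels were 15.2, 24 and 60.5 CPM in WT SI, against 4.96, 7.07 and 9.39 CPM in 9S/T-A SI. In WT colon they were 91.2, 108 and 127 CPM, and in 9S/T-A colon 108, 122 and 153 CPM. Both colon groups lay above every SI library and overlapped each other, and WT SI lay wholly above 9S/T-A SI. Within WT SI, replicates 3 and 7 (60.5 and 56.3 CPM) stood above the other 4, which were between 15.2 and 28.3 CPM.

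The maturation factor Duoxa2 did not follow its neighbour between tissues. It was lowest, at the median and highest at 8.05, 13.8 and 56.8 CPM in WT SI, at 3.07, 5.80 and 11.2 CPM in 9S/T-A SI, at 6.40, 9.04 and 11.4 CPM in WT colon, and at 8.25, 9.49 and 12.5 CPM in 9S/T-A colon. Neighbouring groups in the order of means all overlapped, and the highest mean, 19.6 ± 18.5 CPM (SD, n = 6) in WT SI, rested on replicate 3. Without that library the WT SI mean was 12.2 ± 3.62 CPM.

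**Figure D1:**
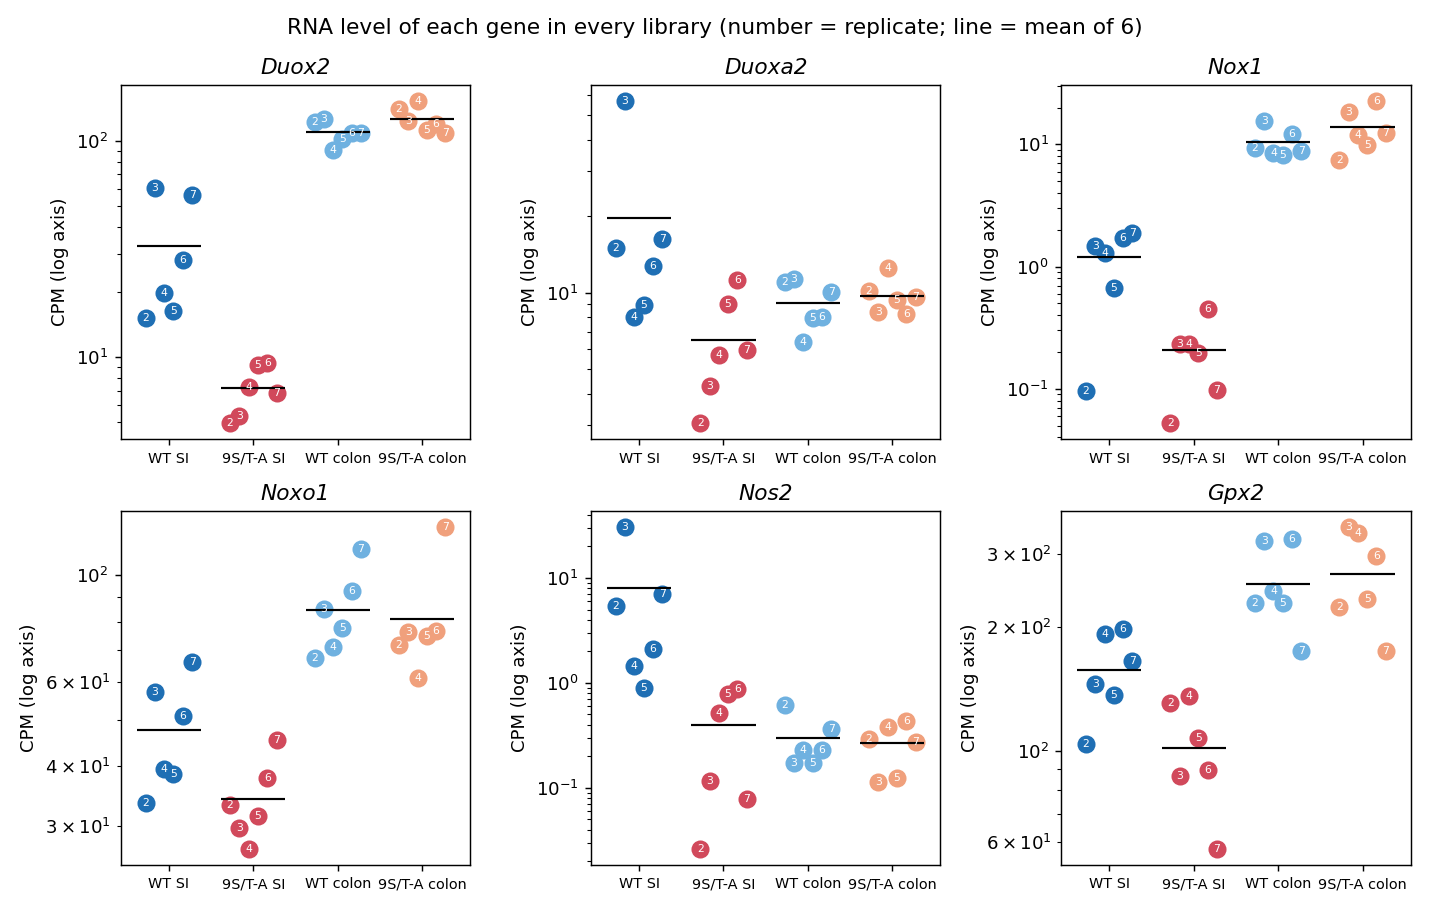
Level of each of the 6 genes in the 24 libraries, in CPM on a log axis, by group; a point is a library with its replicate number, and a line is the mean of 6. Duox2, Nox1 and Noxo1 were higher in every WT colon library than in any WT SI library, Nos2 was highest in WT SI, and replicate 3 of WT SI was the highest of its group for Duox2, Duoxa2 and Nos2.

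Per length the balance of the pair turned over between tissues. Divided by exon length (6403 bases for Duox2, 1592 for Duoxa2), the ratio of Duox2 to Duoxa2 was 0.499 ± 0.229 (SD, n = 6) in WT SI, against 0.297 ± 0.0655 in 9S/T-A SI, so Duoxa2 was the more abundant RNA in all 12 SI libraries. In colon the ratio was 3.05 ± 0.362 in WT and 3.25 ± 0.358 in 9S/T-A. The highest SI ratio was 0.860 and the lowest colon ratio 2.67, and no SI library came near the colon range. Within groups the 2 RNAs nonetheless went up and down together, with a Pearson correlation of 0.778 over 24 libraries after each group mean was taken off log2(CPM + 0.5), 0.775 over the 12 SI and 0.817 over the 12 colon libraries. These points share their library and its depth, and the correlations are a description.

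**Figure D2:**
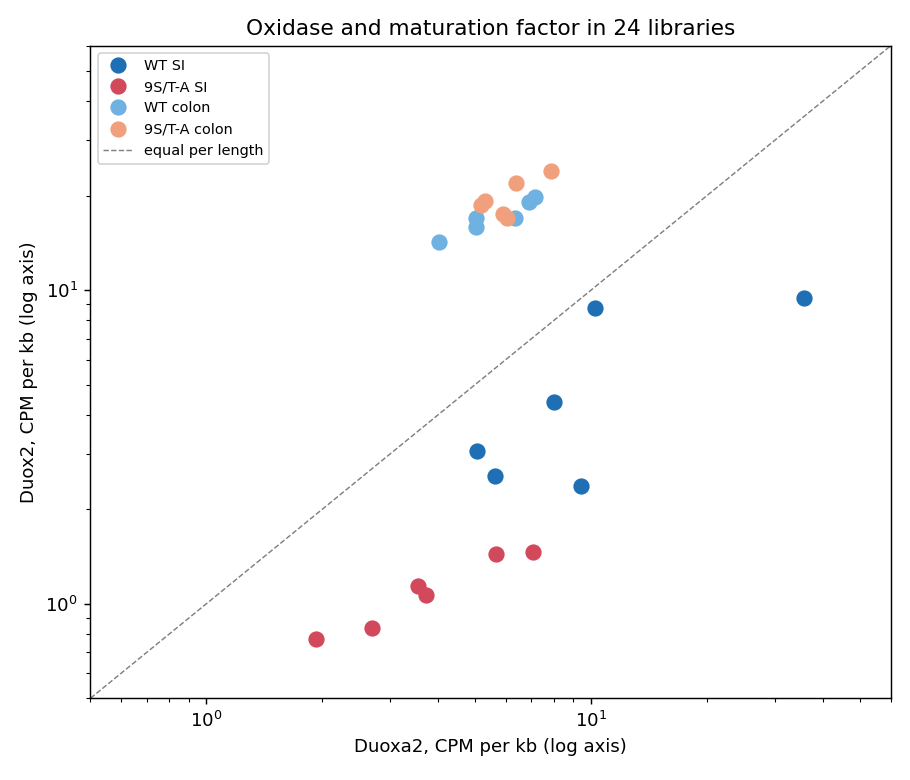
Duox2 against Duoxa2 in CPM per kb of exon, both on log axes; a point is a library and the dashed line marks equal levels per length. All 12 SI libraries lie below the line and all 12 colon libraries above it, at ratios of 2.67 to 3.65.

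Nox1, the catalytic subunit of the superoxide-making complex, was close to absent in SI. It had 4 to 78 counts per library in WT SI, a lowest, median and highest level of 0.0961, 1.38 and 1.88 CPM, and 2 to 21 counts in 9S/T-A SI, or 0.0524, 0.214 and 0.446 CPM. In colon it was at 8.17, 9.08 and 15.7 CPM for WT and at 7.51, 12.2 and 22.7 CPM for 9S/T-A. The tissues did not overlap, whereas the genotypes overlapped in each tissue, in SI through replicate 2 of WT alone, whose 4 counts lay inside the 9S/T-A range. The next WT SI library had 31 counts.

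Its organiser Noxo1 was well expressed in both tissues. In WT SI its lowest, median and highest levels were 33.6, 45.2 and 66.1 CPM, against 27.0, 32.4 and 45.4 CPM in 9S/T-A SI. In colon they were 67.3, 81.4 and 113 CPM for WT and 61.0, 75.5 and 126 CPM for 9S/T-A. The highest library was replicate 7 in all 4 groups. Per length, Noxo1 exceeded Nox1 by 9.32 ± 2.78 fold (SD, n = 6) in WT colon and 7.30 ± 3.14 fold in 9S/T-A colon, and in SI, where Nox1 counts were few, the lowest ratio in any library was 32.7.

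Nos2 was the most variable of the 6. Its lowest, median and highest levels in WT SI were 0.889, 3.76 and 30.8 CPM, a range of 34.6-fold, with replicate 3 at 1192 counts and the others at 41 to 226. In 9S/T-A SI it was at 0.0262, 0.313 and 0.871 CPM, or 1 to 41 counts, just under the WT SI range. Both colon groups were as low, with medians of 0.229 CPM for WT and 0.284 CPM for 9S/T-A and 7 to 41 counts per library. The other groups therefore held traces of Nos2 RNA, and WT SI held more.

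Macrophages and neutrophils also make NOS2, so leukocyte markers are given beside it. Without Lyz2, a paralog of the Paneth lysozyme gene, the other 15 leukocyte markers summed to 17.1 to 32.1 CPM in WT SI, 12.8 to 31.9 CPM in 9S/T-A SI, 5.82 to 7.94 CPM in WT colon and 4.41 to 6.70 CPM in 9S/T-A colon. The SI groups overlapped in this sum, and both lay above colon. Its largest parts in WT SI were the T cell genes Cd8a and Cd3e (means of 7.26 and 3.67 CPM), Ptprc (5.37 CPM) and Itgam (4.41 CPM). In WT colon the largest was Itgam (5.34 CPM). In SI the sum is therefore a poor measure of macrophages and neutrophils. Of the 16 markers, 7 could be tested between genotypes in SI, and none was called, with negative log2 fold changes in 7 of 7 (median -0.18). From WT to 9S/T-A in SI, Itgax was at 0.964 ± 0.314 and 0.492 ± 0.295 CPM, Itgam at 4.41 ± 0.465 and 2.91 ± 0.771 CPM, and Cd8a at 7.26 ± 2.31 and 6.40 ± 3.39 CPM (SD, n = 6), while Cd68 had 28 to 58 and 28 to 99 counts. Replicate 3 of WT SI, with the most Nos2, had a sum of 19.3 CPM, and replicate 5, with the least Nos2 of the WT SI libraries, had the highest sum. The granulocyte genes Epx and Mpo were at 0 in all SI libraries, and the macrophage marker Adgre1 had at most 3 counts in a WT SI library and 12 in a 9S/T-A SI library. S100a8 and S100a9 reached 6 and 5 counts in WT SI and were at 0 in all 9S/T-A SI and colon libraries. The part of leukocytes in the Nos2 difference was not tested.

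Gpx2, the peroxide-removing enzyme, was the most abundant of the 6 per length in every group. In WT SI its lowest, median and highest levels were 104, 155 and 198 CPM, against 57.7, 98.6 and 136 CPM in 9S/T-A SI. In colon they were 175, 236 and 327 CPM for WT and 175, 265 and 350 CPM for 9S/T-A. Neighbouring groups overlapped in each step of the order, but no 9S/T-A SI library reached the colon range. A processed pseudogene on chromosome 7, Gpx2-ps1, shares 36.8% of its 50-base windows with Gpx2 and took 9.02% to 10.6% of the reads of the pair in all groups, so about that share of Gpx2 reads may have been counted elsewhere without changing the comparison.

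Per length the order of the 6 in both colon groups was Gpx2, Noxo1, Duox2, Duoxa2, Nox1 and Nos2, with means from 238 ± 55.9 CPM per kb (SD, n = 6) down to 0.0709 ± 0.0407 in WT. In both SI groups it was Gpx2, Noxo1, Duoxa2, Duox2, Nos2 and Nox1. In WT SI, Noxo1 at 15.8 ± 4.16 and Duoxa2 at 12.3 ± 11.6 CPM per kb did not differ beyond their spread.

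In SI, all 6 genes were lower in 9S/T-A than in WT. The log2 fold change was -2.19 for Duox2 (SE 0.352, a 4.56-fold lower level), -2.47 for Nox1 (SE 0.557) and -4.33 for Nos2 (SE 0.925). It was -1.59 for Duoxa2 (SE 0.462), -0.63 for Gpx2 (SE 0.197) and -0.48 for Noxo1 (SE 0.168). Every 9S/T-A SI library lay below the WT SI mean for each of the 6 genes. For Duoxa2 and Nos2 that mean rested on replicate 3 of WT SI, and every other WT SI library lay below it too. The groups did not overlap for Duox2 and Nos2, 2 of 6 genes where 0.992% of the 16236 genes tested were lower without overlap. Of the 6, 3 were called at an adjusted p under 0.05 in a comparison that called 1.94% of genes, and since this contrast is taken to have chosen the genes nothing is read from either count. Without replicate 3 of WT SI the values became -0.90 for Duoxa2, -3.08 for Nos2 and -1.91 for Duox2.

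In colon, which is outside the comparison taken to have chosen the genes, none of the 6 genes was called between genotypes, where 0.318% of 16997 genes were. The log2 fold changes from WT to 9S/T-A were 0.22 for Duox2 (approximate 95% interval 0.01 to 0.43), 0.11 for Duoxa2 (-0.21 to 0.43), 0.43 for Nox1 (-0.12 to 0.97), -0.04 for Noxo1 (-0.44 to 0.36), -0.12 for Nos2 (-1.01 to 0.78) and 0.10 for Gpx2 (-0.29 to 0.50). Adjusted p-values in edgeR's quasi-likelihood test were 0.526 for Duox2 and higher for the other 5. The intervals for Duox2, Duoxa2, Noxo1 and Gpx2 leave room for changes of at most 0.50 on the log2 scale in either direction, while those of Nox1 and Nos2 are wider, and a p above the threshold does not show that the genotypes were alike. DESeq2 called none of the 6 either, and 1497 of the 16997 genes had an unadjusted p under 0.05.

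**Figure D3:**
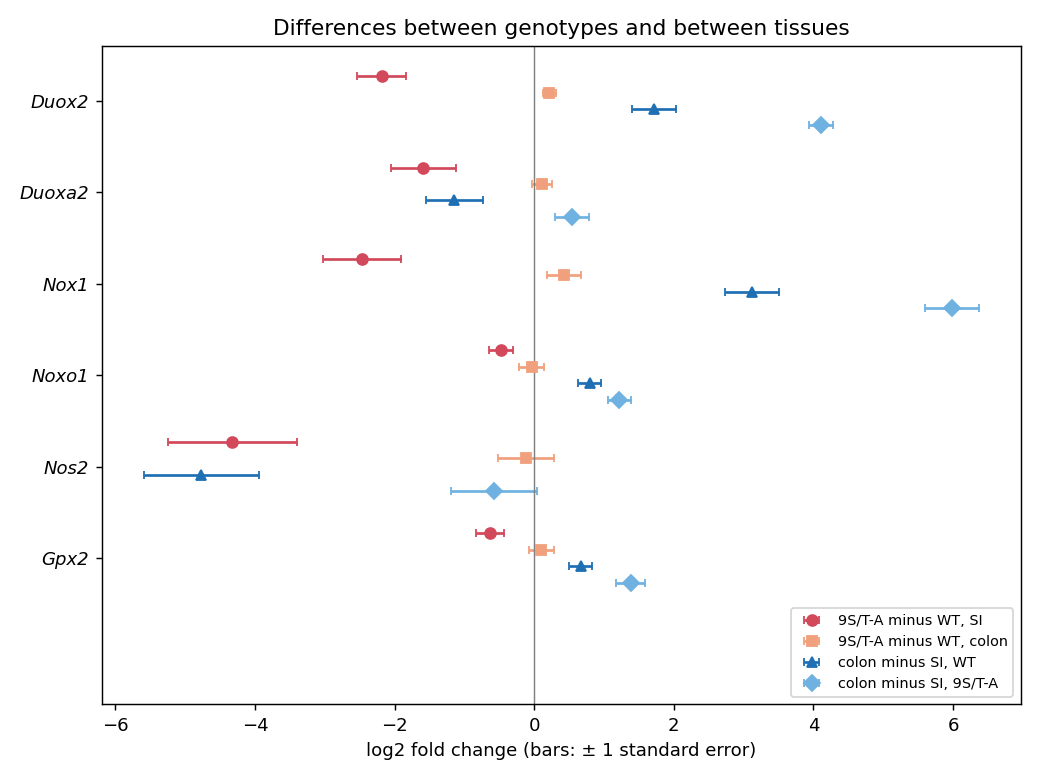
log2 fold change of each gene between genotypes within a tissue and between tissues within a genotype, with bars of 1 standard error (12 libraries per comparison). The SI genotype values run from -4.33 to -0.48, and the colon genotype values from -0.12 to 0.43.

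Colon was next compared with SI within each genotype. These comparisons share the SI libraries with the genotype comparison taken to have chosen the genes, so their p-values are not independent of that choice. A choice of genes low in 9S/T-A SI against WT SI would enlarge falls from WT SI to colon and rises from 9S/T-A SI to colon. Tissue changed most genes: 63.6% of 16979 genes were called in WT and 60.9% of 16938 in 9S/T-A. In WT all 6 genes were called, and in 9S/T-A 4 of 6. The tissues did not overlap for 4 of 6 genes in each genotype, where 43.5% of all genes in WT and 41.1% in 9S/T-A did not. Without TMM scaling the median log2 difference over all genes moved from 0.03 to 0.74 in WT and from 0.04 to 0.85 in 9S/T-A, and the called genes went from 5625 higher and 5169 lower to 12241 and 1903 in WT, and from 5576 and 4743 to 12546 and 1653 in 9S/T-A. Tissue differences are therefore given relative to the middle gene.

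Nox1 rose most, by a log2 fold change of 3.12 in WT (SE 0.385, adjusted p = 3.95e-06, edgeR) and 5.98 in 9S/T-A (SE 0.386, adjusted p = 3.56e-09, edgeR), from the few counts it had in SI. Duox2 rose by 1.71 in WT (SE 0.316, adjusted p = 0.000204, edgeR) and 4.11 in 9S/T-A (SE 0.170, adjusted p = 2.19e-11, edgeR). Noxo1 rose by 0.79 and 1.22, and Gpx2 by 0.66 and 1.38, with adjusted p-values between 1.59e-05 and 0.00307. For these 4 genes every colon library exceeded the SI mean of its genotype, and 6 of 6 same-numbered pairs of libraries went up in each genotype. The SE and p-values above are from fits that did not use this pairing. With the mouse as a block, the adjusted p-values of the 4 genes were between 2.14e-10 and 0.000523 in edgeR.

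Duoxa2 and Nos2 went the other way in WT. Nos2 fell by 4.77 on the log2 scale (SE 0.829, adjusted p = 0.000120, edgeR), lower in 6 of 6 pairs, whereas in 9S/T-A it differed by -0.57 (adjusted p = 0.438). Duoxa2 fell by 1.14 in WT (SE 0.403, adjusted p = 0.0216, edgeR), and this call depended on replicate 3 of WT SI. Without that library the value was -0.41 and the adjusted p 0.0890, within a range of 0.00740 to 0.350 over 19 alternatives, the highest of them without TMM scaling. In 9S/T-A, Duoxa2 was 0.54 higher in colon (adjusted p = 0.0727), and with the mouse as a block 0.64 higher (adjusted p = 0.0303), in a range of 7.84e-05 to 0.148 over 19 alternatives.

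The product of genotype and tissue, which sets the genotype difference in colon against that in SI, contains the comparison taken to have chosen the genes and is a description for them. It was 2.38 for Duox2, 1.67 for Duoxa2, 2.86 for Nox1, 4.19 for Nos2, 0.71 for Gpx2 and 0.42 for Noxo1 on the log2 scale, with SE from 0.247 to 1.08. Of the 6, 2 were called, and 4 with the mouse as a block, where 0.412% and 1.90% of the 17953 genes were, and nothing is read from these counts.

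Variation among mice was shared by some of the genes. After removal of group means, Duoxa2 and Nos2 correlated at 0.925 over the 12 SI libraries, Duox2 with Nos2 at 0.773 and Duox2 with Noxo1 at 0.752, while Gpx2 stayed between -0.213 and 0.490 with the other 5. In colon, where Nos2 had at most 41 counts, Duoxa2 with Nos2 came to 0.393 and Duox2 with Noxo1 to -0.406. Duox2 with Duoxa2 was the one pair above 0.7 in both tissues.

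**Figure D4:**
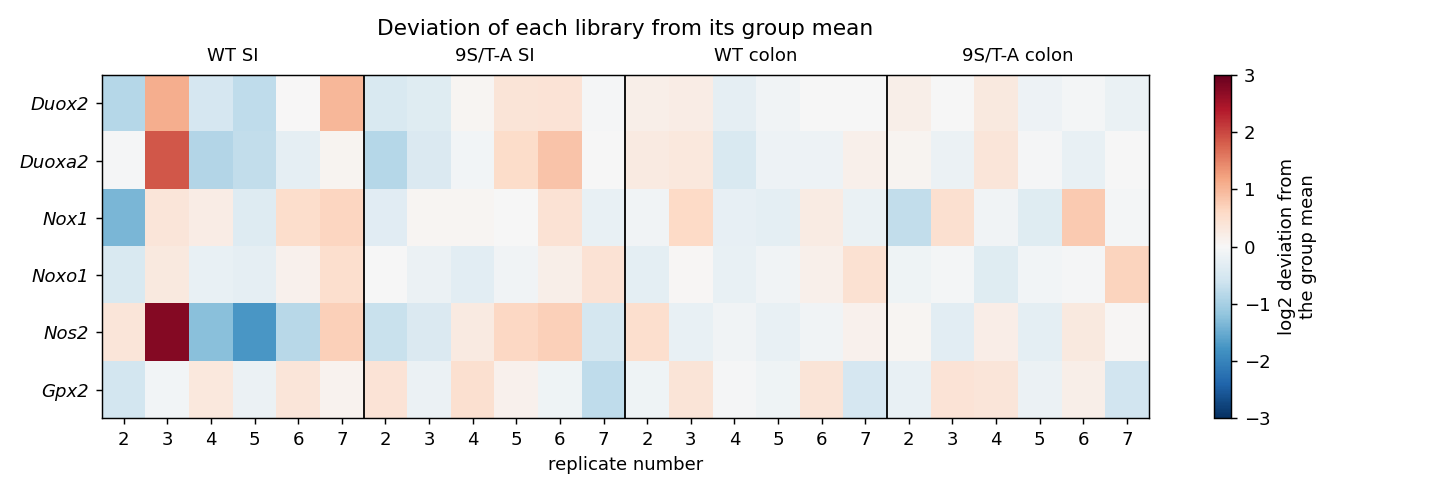
Deviation of each library from the mean of its group on the log2(CPM + 0.5) scale, for the 6 genes (rows) in 24 libraries (columns, by group and replicate number); red is above and blue below the group mean. Replicate 3 of WT SI is high for Duox2, Duoxa2 and Nos2, and Gpx2 does not go with them.

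The genes whose within-group pattern was closest, by the same correlation over 24 libraries, differed by member. Next to Duox2 came Duox1 (0.877), the immune checkpoint ligand gene Cd274 (0.858) and the cytokine gene Tnf (0.834). Duox1 shares 8.0% of its windows of 50 bases with Duox2, and the part of shared reads in this correlation was not tested. Next to Duoxa2 were the apoptosis inhibitor gene Birc3 (0.828), the lipopolysaccharide-binding protein gene Lbp (0.819) and the interferon-induced Rsad2 (0.815). Nos2 again had Birc3 first (0.882), followed by the interferon-induced genes Ifit1 (0.811) and Cmpk2 (0.807). For several of these the likeness came from SI: Birc3 correlated with Duoxa2 at 0.892 over the 12 SI and -0.044 over the 12 colon libraries, and Cd274 with Duox2 at 0.921 and 0.114.

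Gpx2 and Noxo1 had partners that held in both tissues. Gpx2 went with Ssr2 (0.931), which encodes a subunit of the translocon-associated complex, with the nucleoside diphosphate kinase gene Nme1 (0.929) and with the mitotic checkpoint gene Bub3 (0.925), each at 0.911 or more in either tissue. Noxo1 went with Trim68 (0.894), the bromodomain gene Brd8 (0.885) and 9530082P21Rik (0.884), each at 0.813 or more in either tissue. Nox1 was closest to the peroxidasin gene Pxdn (0.818), Cd177 (0.809) and the TEAD family gene Tead2 (0.766). These rankings were picked from all genes that passed the filter and carry no test.

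The rest of the NADPH oxidase machinery was read from a list of 11 other genes, of which 6 could be tested in each tissue. This list and the others that follow were chosen with earlier results of these data known, so neither their counts nor the p-values of their genes are independent evidence. In SI 2 of the 6 were called lower in 9S/T-A and none higher, with a median log2 fold change of -0.35 against 0.00 for all genes. Cyba, which encodes the p22phox partner of NOX1, fell from 36.6 ± 4.64 to 22.6 ± 3.39 CPM (SD, n = 6), by 0.70 on the log2 scale (SE 0.109, adjusted p = 0.00335, edgeR), with no overlap between the groups and adjusted p-values of 2.05e-06 to 0.0106 over 19 alternatives. Duox1, the second dual oxidase, fell from 1.92 ± 1.23 to 0.552 ± 0.240 CPM, by 1.76 (SE 0.407, adjusted p = 0.0396, edgeR), a call lost in 8 of 12 fits with a library left out (WT SI replicate 3, 5, 6 or 7, or 9S/T-A SI replicate 3, 4, 5 or 6), where it lay between -1.84 and -1.42. The activator Noxa1 differed by -0.37 (adjusted p = 0.330) and Rac1 by 0.08 (adjusted p = 0.664).

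Duox1 values are uncertain because the 2 oxidases are alike. Duox1 shares 415 of its 5218 windows of 50 bases, the read length, with Duox2, or 8.0%, which is 6.0% of the windows of Duox2. Its counts were 2.43% to 2.98% of those of Duox2 in the colon libraries and 4.31% to 13.2% in SI, and the part of them that came from Duox2 RNA was not tested. Duoxa1, the maturation factor of DUOX1, had at most 8 counts in any library. The phagocyte oxidase subunit Cybb and Nox4 were also near 0, at no more than 0.155 and 0.479 CPM.

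In colon, none of the 6 genes was called between genotypes: Cyba differed by -0.11 (adjusted p = 0.890) and Duox1 by 0.23 (adjusted p = 0.702). The genotype difference of Duox1 was 1.97 higher in colon than in SI (SE 0.426, adjusted p = 0.0329, edgeR, 0.000831 to 0.0677 over 31 alternatives), a call lost in 9 of 24 fits with a library left out, at 1.85 to 1.99, among them those without replicate 3 of WT SI or of 9S/T-A SI. For Cyba the same difference was 0.57 (SE 0.155), at an adjusted p of 0.126, and 0.0322 with the mouse as a block (0.0322 to 0.195 over 31 alternatives). Between tissues Noxa1 rose with Nox1 and Noxo1, by 1.24 in WT and 1.48 in 9S/T-A. In WT, Ncf1 fell by 4.35 and Rac2 by 1.30, the second of which was not called without TMM scaling. Cyba and Duox1 were called higher in colon in 9S/T-A (0.61 and 2.55) and not in WT (0.03 and 0.58), although without TMM scaling both passed in WT too.

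Of genes for the substrate, cofactor and inhibitors of NOS2, 0 of 13 were called between genotypes in either tissue, with medians of 0.01 and 0.01. Single genes differed without passing: Ddah1 by -0.75 in SI (approximate 95% interval -1.31 to -0.19, adjusted p = 0.156, edgeR), below the WT mean in 6 of 6 9S/T-A libraries. Gch1, whose enzyme starts synthesis of the NOS cofactor and which was picked after its values were seen, was at 3.47 ± 1.69 CPM in WT colon, against 6.88 ± 1.52 CPM in 9S/T-A colon without overlap, at an adjusted p of 0.196 in edgeR, 0.0177 with a replicate block and 0.0202 in DESeq2. In the whole comparison edgeR gave 2556 genes an unadjusted p under 0.05 in SI. Between tissues 10 of the 13 were called in WT. Arg2, an arginase, fell from 99.7 ± 42.3 CPM in SI to 2.39 ± 0.147 CPM in colon and the arginine transporter gene Slc7a2 by 2.59 on the log2 scale, while Ass1, which serves arginine synthesis, rose by 1.94. Ddah1, which breaks down methylarginine inhibitors of nitric oxide synthase, rose by 5.33, from 1.06 ± 0.203 to 43.6 ± 7.11 CPM. In these data the arginase and Nos2 were both lower in colon than in SI in WT.

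Peroxide and superoxide removal by enzymes other than GPX2 showed no call between genotypes in 13 genes tested in SI and 14 in colon. Gpx1, the widely expressed glutathione peroxidase, was at 272 ± 51.9 CPM in WT SI, against 259 ± 31.5 CPM in 9S/T-A SI, a difference of -0.07 (approximate 95% interval -0.36 to 0.22, adjusted p = 0.832). Gpx4, which reduces lipid peroxides, differed by 0.29 (-0.0009 to 0.58) and catalase (Cat) by 0.06 (-0.42 to 0.53). The value for Gpx2 was -0.63, but this comparison is taken to have chosen it, so no contrast with these enzymes is read from it. Between tissues in WT, Sod3 rose by 1.69 and Prdx6 by 1.13, while Gpx3 fell by 3.45, Gpx7 by 1.57 and Gpx4 by 0.68, the last reversed to 0.04 without TMM scaling. Gpx1 and Cat did not pass in WT (-0.03 and -0.17).

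Of 17 glutathione and thioredoxin genes none was called between genotypes in either tissue, with medians of 0.04 in both. Between tissues in WT, 6 rose and 7 fell, among them the cystine transporter gene Slc7a11 (1.04 higher), Gss, the glutathione synthetase (0.82 higher), sulfiredoxin, Srxn1 (1.41 lower) and Slc3a2 (1.39 lower). In the list of 18 tested genes of the NRF2 pathway, the transcriptional response to electrophiles, 1 was called in SI and none in colon. Median log2 fold changes were 0.16 in SI, with 14 positive and 4 negative, and 0.05 in colon, with 10 positive and 8 negative. With a replicate block 2 were called higher in SI, and 1 higher and 1 lower in colon. Gsta1, a glutathione transferase, rose from 212 ± 42.8 to 354 ± 95.1 CPM, by 0.74 (SE 0.167, adjusted p = 0.0357, edgeR), a call lost without TMM scaling (0.64) and in 8 of 12 fits with a library left out, at 0.58 to 0.77 (WT SI replicate 3, 4, 5, 6 or 7, or 9S/T-A SI replicate 3, 5 or 6), in a range of 0.00130 to 0.0916 over 19 alternatives. Nfe2l2, which encodes NRF2, differed by 0.10 and its target Nqo1 by 0.20, neither called. Between tissues in WT, Gsta1 fell by 5.50 and Gsta2 fell by 5.26, Gsta3 and Gstm1 rose by 2.63 and 2.39, and Nqo1 rose by 0.74. Nfe2l2 fell by 0.23 and turned to 0.48 higher without TMM scaling.

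Antimicrobial genes of the epithelium, with which Duox2 and Nos2 are often listed, gave 3 calls of 13 tested in SI, all lower in 9S/T-A, where 1.94% of all genes were called. Since the list was chosen with results of this comparison known, the count is a description, and the p-values of its genes are no independent evidence. The median log2 fold change of the 13 was -0.41 against 0.00 for all genes, and 12 of 13 were negative. Saa1, the acute phase serum amyloid gene, fell from 6.70 ± 3.98 to 1.19 ± 0.671 CPM, by 2.51 (SE 0.402, adjusted p = 0.00402, edgeR, 4.22e-06 to 0.0206 over 19 alternatives). Pigr, the transporter of secretory antibodies, fell from 2487 ± 156 to 1645 ± 314 CPM, by 0.60 (adjusted p = 0.0166), and Zc3h12a, which encodes an RNase that limits inflammatory transcripts, by 1.02 (adjusted p = 0.0287, lost without WT SI replicate 3 or 7 or 9S/T-A SI replicate 3, 4 or 5, at -1.05 to -0.90).

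In colon 0 of 18 were called, with a median of -0.02, and Saa1 stood at 129 ± 57.0 CPM for WT and 124 ± 62.0 CPM for 9S/T-A. The genotype difference of Saa1 was 2.45 higher in colon than in SI (SE 0.557, adjusted p = 0.0462, edgeR), a call lost in 17 of 24 fits with a library left out, spread over all 4 groups, at 2.11 to 2.54, in a range of 0.0137 to 0.0985 over 31 alternatives. With the mouse as a block 4 genes of the list were called in this product, and 1 without. Between tissues in WT, Lpo, the lactoperoxidase that uses hydrogen peroxide, rose from at most 3 counts in any SI library to 11.9 ± 4.11 CPM, and Il1rn, the interleukin-1 receptor antagonist, from 0.189 ± 0.0928 to 19.4 ± 3.61 CPM. Reg3g and Socs3 fell by 3.54 and 2.57.

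**Figure D5:**
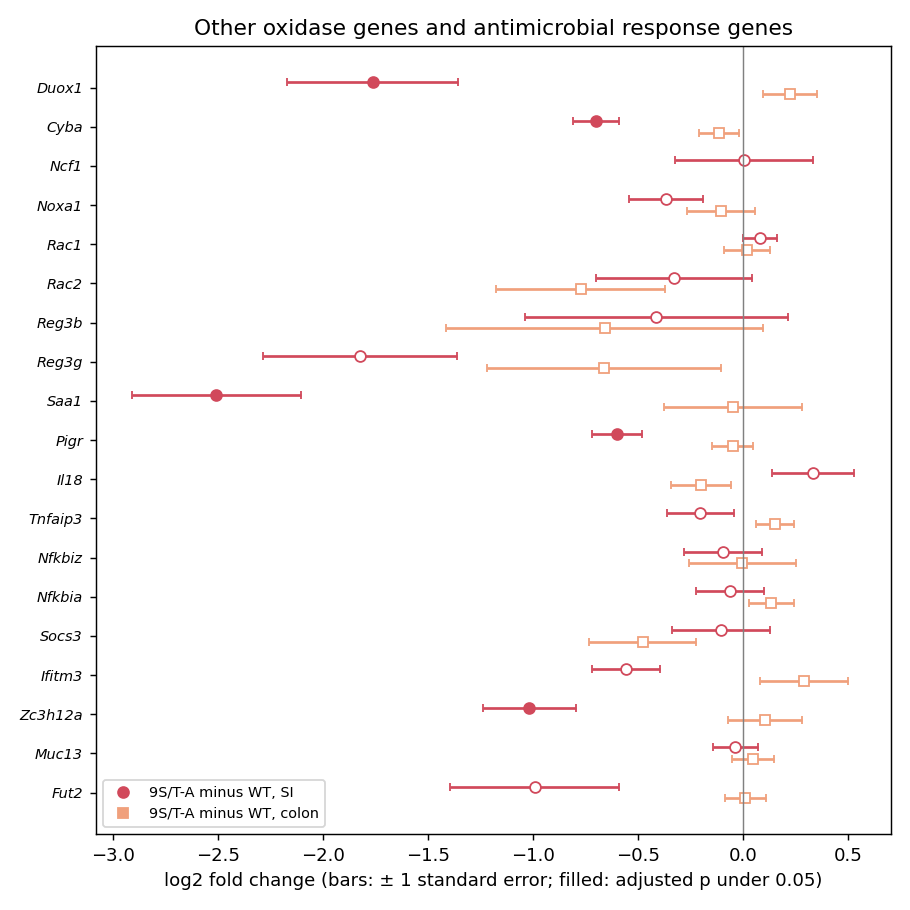
log2 fold change from WT to 9S/T-A in SI (circles) and colon (squares) for the tested genes of the oxidase list (top 6, Duox1 to Rac2) and of the antimicrobial list, with bars of 1 standard error; filled symbols have an adjusted p under 0.05, and genes tested in colon alone are not shown. The 5 filled symbols are all SI values below 0, from -2.51 for Saa1 to -0.60 for Pigr.

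Of 15 receptors and transcription factors of stress and inflammation, none of the 14 tested in SI and none of the 15 tested in colon was called, with medians of -0.02 and 0.05. Between tissues in WT, Tlr4, the lipopolysaccharide receptor, rose from at most 3 counts in each SI library to 11 ± 1.84 CPM and Nod2, a sensor of bacterial wall peptides, by 1.31, while Irf7 fell by 3.36 and Il22ra1, a receptor subunit for interleukin-22, by 2.25. Nod2 differed by -1.04 between genotypes in SI (adjusted p = 0.0548).

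Neighbouring genes were read as a description. Among genes that start within 1 Mb, 1 of 31 around Duox2 was called between genotypes in SI (Duox1), beside 1.94% of all genes. The call was 1 of 19 around Nox1 (Tspan6) and 1 of 66 around Noxo1 (Slc9a3r2). No gene was called among 35 around Nos2 or 14 around Gpx2. Around Duoxa2 the called genes again include Duox1, but the 30 genes tested there include Duox2. This comparison is taken to have chosen Duox2, so no count is given around Duoxa2. The part of Duox1 counts that came from Duox2 RNA was not tested, and nothing is read from the counts of calls. The median log2 fold change of the neighbours was -0.14 around Nox1 and between -0.03 and 0.05 around the other 5. In colon none was called around any of the 6.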

How the data were processed

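RNA of sorted cells was sequenced as single-end 50-base reads in 24 libraries (polyA, stranded). The authors aligned reads with TopHat2 2.1.1 to GRCm38.p3 and deposited unnormalized counts for Ensembl genes made by featureCounts (Subread 1.5.2), which per the file headers used exons, strand and primary alignments, so a read with several positions counted at 1 of them. The study's own tests used DESeq2 1.14.1. From these counts, edgeR 4.0.16 (R 4.3.3; filterByExpr by group, TMM, quasi-likelihood test, two-sided) was fitted over all genes for genotype in each tissue, tissue in each genotype and their product, with Benjamini-Hochberg adjustment and a threshold of 0.05. The main fits of genotype in each tissue and of tissue in each genotype were tested on simulated independent libraries. Those of the product and the alternatives were not. An approximate 95% interval is the estimate ± 2.23 SE. CPM used TMM factors over all 24 libraries, and CPM per kb the exon lengths in the files. Symbols matched 44585 genes (97.96%). No library pair was identical. Totals of 36.0 M to 65.8 M bear on counting error only.

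The 6 genes and all lists were chosen with earlier results of these data known. Besides the 6, the rule named 10 oxidase and peroxide genes whatever their result, the called genes of each list (up to 4 by size, and for tissue up to 2 each way by the WT value), and the 3 genes most like each member. The series' design text has cells taken from the SI and colon of each mouse (its total of 6 mice was read as 6 per genotype, since each number occurs in both genotypes), so the number was used as the mouse within a genotype. Same-numbered SI and colon libraries deviated together (correlations of 0.165 to 0.558 in WT and 0.146 to 0.641 in 9S/T-A, 6 of 6 pairs over 0.1). These correlations cannot tell a shared mouse from another factor that goes with the number, since same-numbered libraries of different genotypes also correlated. The main fits of tissue and of the product did not use this pairing, and the replicate block did. Across genotypes a number shares its sex and no label gives a litter or batch, so numbers were not taken as pairs there. Same-numbered libraries nonetheless correlated over 0.1 in 4 of 6 pairs in SI and 5 of 6 in colon (means of 0.192 and 0.394, against -0.036 and -0.065 for other numbers). What else a number shares across genotypes was not tested, and the main genotype fits leave it out. Alternatives were RLE factors, no TMM, no filter, a filter at 10 counts on average, a sex covariate, a replicate block, DESeq2 1.42.0 and each library left out. One gene of the oxidase list is not reported here. Omitting TMM was chosen after seeing the data. Promoter windows are RefSeq (GRCm38.p6).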

Additional observations from a re-analysis of the deposited data

Results flagged for a closer look

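Among 24 sets of 6 libraries (6 genes in 4 groups), 3 had a library far from the rest by Dixon's criterion on CPM. By chance the criterion flags about 1 in 20 sets if values are normally distributed, which was not tested. The flags were not repeated on a log scale, where the gaps would differ. Duoxa2 was 56.8 CPM in replicate 3 of WT SI against 16.3 CPM in the next library, a gap of 0.831 of the range. Nos2 in the same library was 30.8 CPM against 7.06 CPM, a gap of 0.793, so both flags rest on 1 mouse. Noxo1 was 126 CPM in replicate 7 of 9S/T-A colon against 76.6 CPM, a gap of 0.760.

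The genotype difference was called as differing between tissues for Duox1, 1.97 higher on the log2 scale in colon than in SI, and for Saa1, 2.45 higher, by the test of the product of genotype and tissue. With a library left out, the call held in 15 of 24 fits for Duox1 and in 7 of 24 for Saa1. Duox1 shares windows of 50 bases with Duox2, and the part of its counts that came from Duox2 RNA was not tested.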

How the results depend on the processing

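None of the fold changes of the 6 genes changed sign where it had passed a test, and those given as a description kept their sign. The limits are the few Nox1 and Nos2 counts in some groups, replicate 3 of WT SI for Duoxa2 and Nos2, the scaling between tissues, and Duox1, which cannot be separated from Duox2 where reads are shared. The cause of the following shifts was not tested.

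In SI, 315 genes were called between genotypes (168 higher, 147 lower), 776 by DESeq2 and 188 to 550 with a library left out (over 1.5 times fewer without WT SI replicate 3, 4 or 6 or 9S/T-A SI replicate 4 or 5, and more without 9S/T-A SI replicate 2). Without TMM scaling there were 78 higher and 190 lower, and the median of all genes moved to -0.11. In colon, 54 became 90 without a filter, 89 with sex as covariate, 248 by DESeq2 and 30 to 72 with a library left out (lowest without WT colon replicate 2 or 5). For the product, 74 became 255 by DESeq2 and 342 with the mouse as a block, and 50 to 112 with a library left out. The replicate block across genotypes gave 477 calls in SI and 385 in colon, although same-numbered libraries correlated over 0.1 in 4 of 6 and 5 of 6 pairs, and 5 of 12 and 8 of 12 libraries correlated best with their own number, a hint from the data and not the design. As a description, 1 to 3 of the 6 genes were called in SI with a library left out (1 without WT SI replicate 3 or 9S/T-A SI replicate 3, 4, 5 or 7). These fits called from 188 of 16419 to 550 of 16399 genes tested. In the product it was 1 to 3 of the 6, in fits that called from 50 of 18110 to 112 of 18187 genes. The block called 4 of the 6 and 1.90% of 17953 genes, and nothing is read from these counts.

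Without TMM scaling mean levels moved beyond 1 SD in 11 of 24 cases: Duox2 to 5.30 CPM in 9S/T-A SI, 142 in WT colon and 161 in 9S/T-A colon, Duoxa2 to 11.9 and 12.4 in WT and 9S/T-A colon, Nox1 to 13.5 in WT colon, Noxo1 to 25.7 in 9S/T-A SI and 110 and 106 in WT and 9S/T-A colon, and Gpx2 to 329 and 340 in WT and 9S/T-A colon. The same setting reversed tissue differences of 6 other named genes: in WT Cat became 0.55, Gpx1 0.68, Gpx4 0.041, Nfe2l2 0.48 and Rac1 0.56, and in 9S/T-A Cat became 0.38, Gpx1 0.76, Nfe2l2 0.36, Rac1 0.57 and Zc3h12a 0.73. The median correlation of the genes most like a member was 0.896 over the SI and 0.723 over the colon libraries.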
